A study of Mus musculus with 5 samples.

Results

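HSF1 binding was examined at 8 genes that encode the HSP90 chaperones of the cytosol and their cochaperones, namely Hsp90aa1, Hsp90ab1, Stip1, Fkbp4, Chordc1, Ptges3, Cacybp and Ahsa1. They were taken by name from the 21631 protein-coding genes annotated on the autosomes and the X chromosome. The choice was made with earlier results of these data known. A gene counted as having a peak if the summit of one, the base of highest signal, lay in the gene or no more than 10000 bp away. HSF1 is a transcription factor of the heat shock response, and chromatin immunoprecipitation with sequencing (ChIP-seq) maps the DNA it is crosslinked to. The cells were primary wild-type (WT) cortical neurons of Swiss-Webster mice, taken at embryonic day 16 and used on day 13 in culture. The control group (2 ChIP libraries) had no treatment. The NMDA group (2 ChIP libraries) had 50 µM N-methyl-D-aspartate, an agonist of a class of glutamate receptors, in the bath for 10 min, then 20 min without drug. The only input library came from untreated neurons. The labels name the cell type, and because the data are peaks of a DNA-binding protein the cell type could not be checked against expressed markers.

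Each condition has 1 peak list that combines its libraries, with 3316 control peaks and 3646 NMDA peaks. No value therefore has a replicate error, no test between the conditions was possible, and read depth is unknown. The fold enrichment of a peak is the authors' value within its own list. The lists are scaled separately, and 17 control peaks and 182 NMDA peaks reached 4-fold, so folds of different lists are given side by side and not as a change.

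HSP90 is an ATP-driven chaperone that completes the folding of kinases, steroid hormone receptors and many other client proteins. Clients arrive from HSP70 through an adaptor, and cochaperones then set the pace of the ATP cycle and bring in client-specific partners. HSP90 also holds HSF1 inactive in unstressed cells, and HSP90 genes are textbook targets of HSF1. HSF1 binds as a trimer to heat shock elements, which are runs of the short unit GAA alternating with its inverted complement TTC.

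In the NMDA list 7 of the 8 genes had a peak, and all 7 had it within 1000 bp of an annotated gene end. Across all protein-coding genes 9.41% had an NMDA peak by the first rule and 1.93% by the second. In the control list 0 of the 8 genes had a peak by either rule, where 10.3% and 2.55% of all protein-coding genes had one. A peak in the NMDA list without one in the control list was thus found for 7 of 8 genes, against 6.68% of all genes, and a peak in both lists for 0 of 8, against 2.72%. Ahsa1 was the gene without a peak in either list. A missing peak shows only that none was listed there at this unknown depth. Because the 8 genes were chosen with earlier results known, these counts describe them and are no test of enrichment.

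The 7 genes carried 9 peaks, since both HSP90 genes had a pair. Their fold ranged from 2.48 to 8.17 with a median of 3.98, beside a median of 2.69 over the whole NMDA list. Of the 9 peaks 8 were wider than the list median of 303 bp, with a range of 229 to 710 bp. The summits lay inside the gene for 4 peaks and outside it for 5. Of the 9 summits 6 lay within 250 bp of a gene end.

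**Figure D1:**
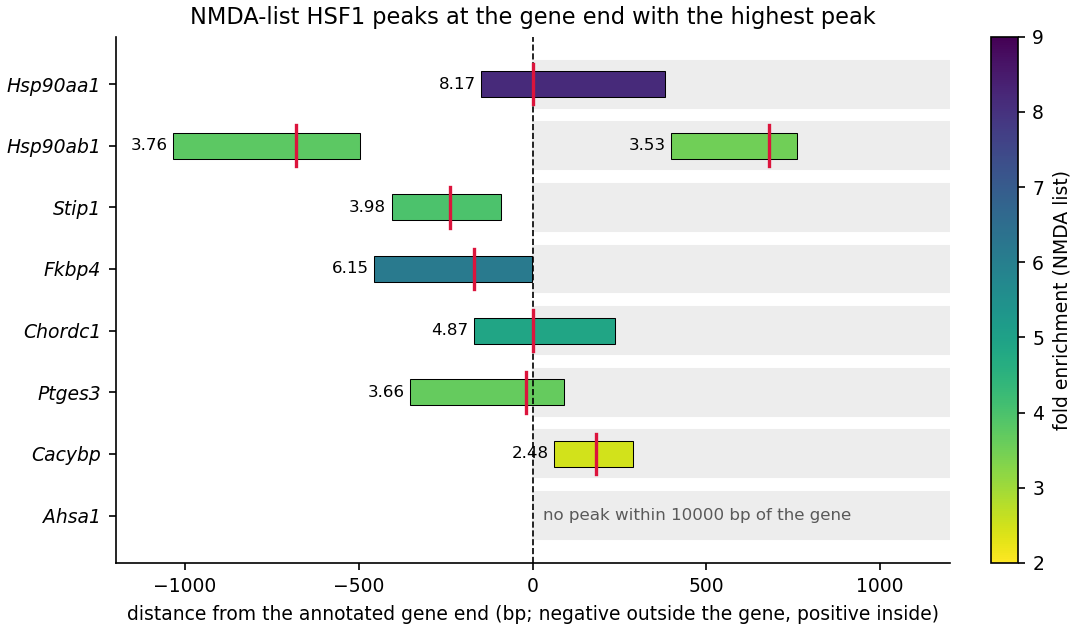
NMDA-list peaks (bars, colour and number give the fold enrichment) and their summits (red lines) at 8 genes, by distance in bp from the gene end at which the highest peak lies; the grey side is the gene. The peaks of Hsp90aa1, Chordc1 and Ptges3 cover the gene end, the pair at Hsp90ab1 lies on either side of it, and Ahsa1 has none; the peak 3050 bp beyond the other end of Hsp90aa1 lies outside the drawn range.

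The promoter sequences of 6 of the 8 genes (RefSeq, GRCm38.p6), each from 250 bp before the transcript start to 50 bp into the transcript, were compared with the positions of the peaks. Those of Hsp90aa1 and Hsp90ab1 were not analysed here. The promoters were searched for heat shock elements of at least 3 alternating units with 2 free bases between units, spelled GAANNTTCNNGAA or TTCNNGAANNTTC. Each of these spellings is the other one read on the opposite strand, and elements of more units contain overlapping ones of fewer. The table holds 32817 distinct promoters, and 198 of them (0.603%) held one. Of the 6 promoters 1 did, that of Chordc1.

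The Chordc1 promoter is shown from its first base to the end of the element, chr9:18292017-18292285 on the + strand, because its summit falls inside the element. Capitals mark the element of 5 alternating units.

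Chordc1: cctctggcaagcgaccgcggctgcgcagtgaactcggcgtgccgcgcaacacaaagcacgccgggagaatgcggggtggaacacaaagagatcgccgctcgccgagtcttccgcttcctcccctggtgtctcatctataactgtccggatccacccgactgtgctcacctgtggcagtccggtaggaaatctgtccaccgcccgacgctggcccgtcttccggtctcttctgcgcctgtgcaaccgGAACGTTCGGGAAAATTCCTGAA

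The element, GAACGTTCGGGAAAATTCCTGAA, spans 23 bases at chr9:18292263-18292285, from 4 bases before the transcript start onward, and the summit lies inside it, 6 bp from its centre. No other promoter of the 32817 held 5 alternating units. With at least 4 units there were 8, those of Arpc2, Chordc1, Fam149a, Gm38873, Gm41230, Hspd1, Hspe1 and Kctd18, named here after their values were seen. Of these 8 promoters 4 were overlapped by an NMDA peak, those of Chordc1, Fam149a and the mitochondrial chaperonin genes Hspd1 and Hspe1. The last pair lay under the same NMDA peak and was also overlapped by a control peak, again the same for both.

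The promoters of Fkbp4, Ptges3 and Stip1 are shown over the 250 bases before the transcript start, because the peak covers all or part of each and they differ in what the search found. Capitals mark matches to 3 units with 1 mismatch among the 9 fixed bases. All 3 read 5′ to 3′ towards the gene, at chr6:128438657-128438906 on the − strand for Fkbp4, chr10:128058732-128058981 on the + strand for Ptges3 and chr19:7040027-7040276 on the − strand for Stip1.

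Fkbp4: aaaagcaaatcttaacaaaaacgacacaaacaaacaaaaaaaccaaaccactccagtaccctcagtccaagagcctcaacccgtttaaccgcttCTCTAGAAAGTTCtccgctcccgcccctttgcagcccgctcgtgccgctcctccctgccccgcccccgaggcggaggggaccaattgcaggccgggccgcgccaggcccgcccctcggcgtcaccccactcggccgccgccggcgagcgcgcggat
Ptges3: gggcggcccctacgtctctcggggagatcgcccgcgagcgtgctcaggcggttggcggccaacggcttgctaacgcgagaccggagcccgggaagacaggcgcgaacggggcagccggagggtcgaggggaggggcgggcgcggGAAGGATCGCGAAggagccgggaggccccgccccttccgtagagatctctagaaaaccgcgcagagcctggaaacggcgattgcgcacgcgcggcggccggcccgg
Stip1: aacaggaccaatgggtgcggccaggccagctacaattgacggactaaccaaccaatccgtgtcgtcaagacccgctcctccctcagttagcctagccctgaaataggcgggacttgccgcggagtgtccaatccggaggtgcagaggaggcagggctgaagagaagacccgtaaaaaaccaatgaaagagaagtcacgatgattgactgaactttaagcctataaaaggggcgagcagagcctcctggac

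In the Fkbp4 promoter the match, CTCTAGAAAGTTC, began 156 bp before the start, and the summit lay 13 bp from its nearest base. Its last 8 bases, GAAAGTTC, were an exact match to 2 units. In the Ptges3 promoter the match, GAAGGATCGCGAA, began 106 bp before the start, and the summit lay 74 bp from it. The Stip1 promoter had no match by any of these definitions. Only 160 of the 316 bp of the Stip1 peak lay within that promoter, and the rest was not searched. The Cacybp promoter had no match either, and its peak did not overlap the 300 bases of that window. The Ahsa1 promoter, with no peak, had a match with 1 mismatch starting 13 bases into the transcript. Such matches stood in 4 of the 6 promoters (with Chordc1 counted), and in 7.21% of the 32817 promoters. An exact match to 2 units stood in 2 of the 6, Chordc1 and Fkbp4, and in 15.1% of all.

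**Figure D2:**
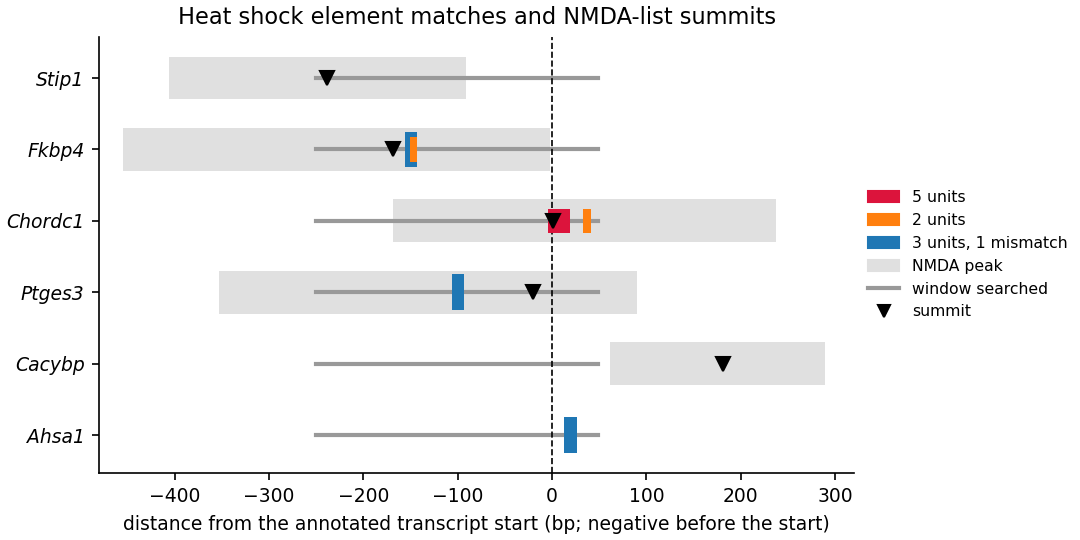
The 6 promoters with sequence, aligned at the annotated transcript start (dashed line, distance in bp). The grey line is the window searched, light bars are NMDA peaks, triangles are summits and coloured blocks are element matches. The summit of Chordc1 falls on its 5-unit block, and that of Fkbp4 lies 13 bp from its match. Stip1 and Cacybp have no block in the window, which leaves out part of the Stip1 peak and all of the Cacybp peak.

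Elements were also counted in all promoters that a peak overlapped, to place the 6. An element of at least 3 units stood in 15 of 240 promoters overlapped by an NMDA peak (6.25%, exact Clopper-Pearson 95% interval 3.54 to 10.1%). It stood in 7 of 310 overlapped by a control peak (2.26%, 0.913 to 4.60%). The groups share 22 promoters, and without those the NMDA share was 11 of 218 (5.05%). The control share without them was not computed, so the 2.26% is not its counterpart. Chordc1 was among the first 15, and none of the 6 was among the 310. The intervals cover counting error only and take promoters as independent, although promoters of 1 gene or of a divergent gene pair can overlap.

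Hsp90aa1 encodes HSP90 alpha, the stress-inducible form. The gene lies at chr12:110691036-110696395. Its stronger peak, chr12:110696015-110696543, had 8.17-fold enrichment, a −log10 q of 39.7 and a width of 529 bp, and its summit was 2 bp inside the upper end of the gene. Of all peaks in the NMDA list it held rank 24 by fold, which is within the top 0.658%. A second peak, chr12:110687771-110688480, had 5.38-fold enrichment (rank 83) and a −log10 q of 17.0. At 710 bp it was the widest of the 9 peaks. Its summit lay 3050 bp beyond the lower end, 8407 bp from the first summit, and 5324 bp from the nearest other gene, 1700001K19Rik. It was the only one of the 9 summits over 1000 bp from a gene end. The nearest control peak was 153617 bp away.

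Hsp90ab1 encodes HSP90 beta, the form that most cells make constitutively. The gene lies at chr17:45567778-45573261. Its peaks stood on both sides of the upper end and did not touch it. The outer one, chr17:45573758-45574295, had 3.76-fold enrichment (rank 224) with the summit 680 bp outside the gene. The inner one, chr17:45572501-45572862, had 3.53-fold enrichment (rank 329) with the summit 681 bp inside. A stretch of 895 bp separated the peaks. Their −log10 q values were 6.60 and 5.82. The outer summit also lay inside Gm35399, a long noncoding RNA gene at chr17:45573315-45574790. Both peaks at this gene were weaker than both at Hsp90aa1. The nearest control peak was 709191 bp away.

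Stip1 encodes HOP, the adaptor that holds HSP70 and HSP90 together while a client is passed on. Its peak, chr19:7040117-7040432, had 3.98-fold enrichment (rank 195), a −log10 q of 8.91 and a width of 316 bp. The summit lay 239 bp before the transcript start, and the nearest control peak was 892246 bp from the gene. The peak ended 91 bp before the start, so it lay wholly upstream.

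Fkbp4 encodes FKBP52, a prolyl isomerase that binds HSP90 in steroid receptor complexes. Its peak, chr6:128438658-128439111, had 6.15-fold enrichment (rank 59) and a −log10 q of 24.4. After Hsp90aa1 it was the gene with the highest fold of the 8. The summit lay 169 bp before the transcript start, and the 454 bp of the peak reached from 455 to 2 bp before it. The summit lay inside the noncoding RNA gene Gm10069 as well, 68 bp from the end of that gene. The nearest control peak was 888188 bp away.

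Chordc1 encodes the zinc-binding HSP90 cochaperone also known as morgana. Its peak, chr9:18292098-18292504, had 4.87-fold enrichment (rank 114) and a −log10 q of 17.5. The summit fell 1 bp after the first base of the transcript, within the element of 5 units printed for its promoter. Of the 8 genes it was the farthest from a control peak, at 2293234 bp. The noncoding RNA gene Gm51667 overlaps the site, with an end 997 bp from the summit.

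Ptges3 encodes p23, which binds the closed, ATP-bound form of HSP90. Its peak, chr10:128058629-128059072, had 3.66-fold enrichment (rank 253) and a −log10 p of 10.7. The summit lay 20 bp before the transcript start, and the peak covered the whole stretch from 250 bp before the start to 50 bp into the transcript. The nearest control peak was 390472 bp away.

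Cacybp encodes a calcyclin-binding protein linked to protein degradation. Its peak, chr1:160212603-160212831, was the weakest and narrowest of the 9, with 2.48-fold enrichment, a −log10 q of 1.69 and 229 bp. At rank 2680 it lay below the median fold of the NMDA list. The summit was 181 bp inside the gene, after the transcript start. The nearest control peak was 71897 bp from the gene. The other 8 peaks all ranked among the first 400 of the list, and 3 of them among the first 100.

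Ahsa1 encodes AHA1, the main activator of the HSP90 ATPase. The gene lies at chr12:87266415-87273998. Its nearest NMDA summit was 1024823 bp away and belonged to a 2.69-fold peak. Its nearest control summit was 60521 bp away, the closest of any of the 8 genes. Among peaks that passed the 10000 bp rule, the farthest from its gene was the second one at Hsp90aa1. Where a gene had no peak in a list, the closest such nearest summit was this control summit. Any limit between those distances therefore gives the same count of genes with a peak in each list.

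**Figure D3:**
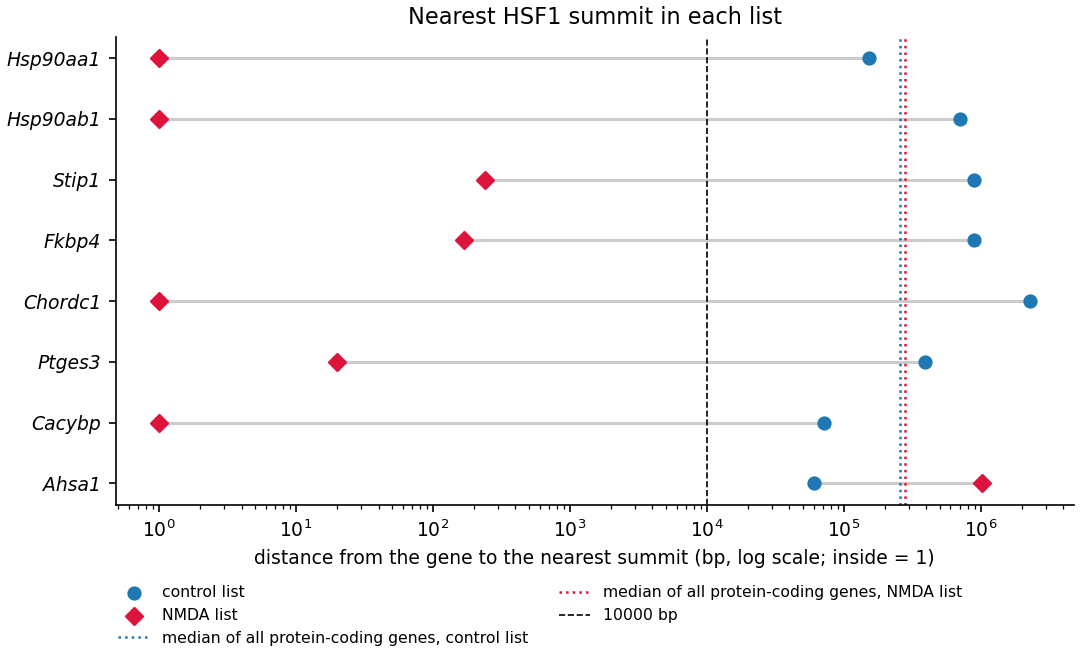
Distance in bp (log scale) from each of the 8 genes to the nearest summit of the control list (blue circles) and the NMDA list (red diamonds); a summit inside the gene is drawn at 1. Dotted lines mark the median over all protein-coding genes, 257350 bp in the control list and 278148 bp in the NMDA list; 7 diamonds lie left of the 10000 bp line and all circles lie right of it.

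In the plot of nearest summits, the control distances of the 8 genes ran from 60521 to 2293234 bp, with a median of 549832 bp. Over all protein-coding genes the control median was 257350 bp. In the NMDA list the median distance was 10.0 bp for the 8 genes and 278148 bp for all. The control list therefore had no nearby peaks that a slightly wider window would have taken in.

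**Figure D4:**
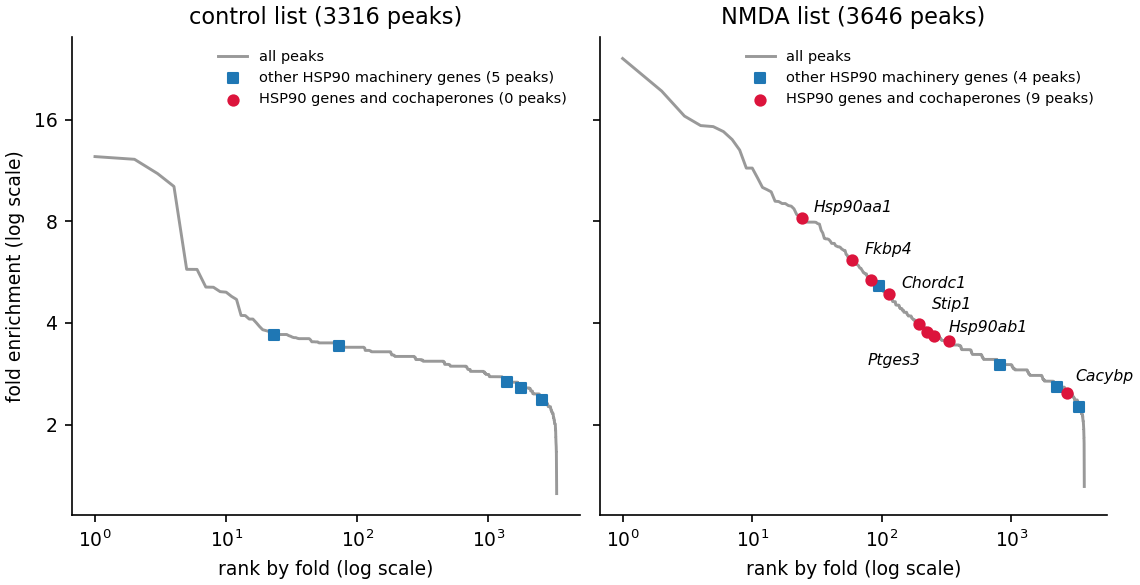
All peaks of the control list (left) and the NMDA list (right) ordered by fold enrichment (grey line, both axes on a log scale), with the peaks of the 8 genes (red circles) and of 34 other HSP90 machinery genes (blue squares) at their ranks. The red circles run from 8.17-fold at Hsp90aa1 to 2.48-fold at Cacybp and are in the NMDA list only.

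The order of folds in the ranked plot was Hsp90aa1, Fkbp4, Chordc1, Stip1, Hsp90ab1, Ptges3 and Cacybp. Folds carry no replicate error, so whether neighbours in this order differ was not tested. Stip1, Hsp90ab1 and Ptges3 were close, at 3.98, 3.76 and 3.66. With a minimum of 4-fold, Hsp90aa1, Fkbp4 and Chordc1 were left, which is 3 of 8 genes against 0.578% of all protein-coding genes. Of control peaks that strong the 8 genes had 0, against 0.0462% of all. In the NMDA list 418 genes had a summit within 1000 bp of a gene end. Ordered by fold, Hsp90aa1 was in place 8, Fkbp4 in place 15, Chordc1 in place 25, Stip1 in place 31, Hsp90ab1 in place 35, Ptges3 in place 41 and Cacybp in place 325.

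For each gene compared there were 318 others with an NMDA summit within 1000 bp of an end and no control summit within 10000 bp. Those nearest in fold to Hsp90aa1 were Tshz2, a zinc finger transcription factor gene (6.78-fold), Aptx, which encodes the DNA repair protein aprataxin, and the HSP40 gene Dnaja1 (6.63-fold each), and Mrps6 and the inositol transporter gene Slc5a3 (6.24-fold each). Those nearest to Cacybp were Rrp7a and Stk32c (2.48-fold each) and Bivm, Ptp4a1 and Rbm44 (2.47-fold each). The measure of likeness was the difference in log2 fold over 1 list. Genes with equal folds can share 1 peak, and whether these did was not examined.

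The other genes of the HSP90 machinery were taken as a list of 34, with the paralogs Hsp90b1 and Trap1 of the endoplasmic reticulum and of mitochondria and 32 further cochaperones and associated genes. Of these 34 genes, 4 had an NMDA peak (11.8%) and 5 had a control peak (14.7%), beside 9.41% and 10.3% of all protein-coding genes. Within 1000 bp of a gene end 3 of 34 (8.82%) had an NMDA peak and 3 of 34 had a control peak. The shares of all genes were 1.93% and 2.55%. The NMDA shares of the 34 were below those of the 8 genes under both rules. This difference was not tested, and both sets were chosen with earlier results of these data known. Neither Hsp90b1 nor Trap1 had a peak within 10000 bp in either list, nor did the kinase-specific cochaperone gene Cdc37.

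Ppid was the only one of the 34 with a peak in both lists. It encodes cyclophilin 40, a prolyl isomerase that, like FKBP52, binds HSP90 in steroid receptor complexes. The NMDA peak, chr3:79591442-79592059, had 5.16-fold enrichment (rank 95), between the values of Fkbp4 and Chordc1. The control peak, chr3:79591450-79591826, had 3.42-fold enrichment (rank 72). All 377 bp of the control peak lay within the NMDA peak, and the summits were 34 bp apart, 361 and 395 bp inside the gene. None of the 8 genes shared a site in this way.

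In the NMDA list alone were Rpap3, a subunit of the R2TP complex (3.01-fold, summit 227 bp from the gene end), Ppp5c, the HSP90-bound phosphatase PP5 (2.58-fold, 512 bp), and Ttc4 (2.26-fold, 5146 bp). In the control list alone were Unc45a, a myosin chaperone (3.70-fold, 2198 bp), Fnip1, a folliculin partner (2.67-fold, 1167 bp), Fkbp5, the FKBP51 gene (2.57-fold, 800 bp), and the ubiquitin ligase gene Stub1 (2.36-fold, 470 bp). Unc45a held rank 23 in the control list. The peaks of Ttc4 and Stub1 had −log10 q values of 0.729 and 0.948, short of a q of 0.05. Of these 34 genes 29 had a promoter in the table, and Ppid was not among them, so its promoter was not searched. An element of at least 3 units stood in 0 of the 29 genes, a match with 1 mismatch in 6 and 2 units in 5. Over all promoters the shares were 0.603%, 7.21% and 15.1%, in the same order. A gene with 2 promoters counted if either held the match, so counts by gene and shares by promoter are not exact counterparts.

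**Figure D5:**
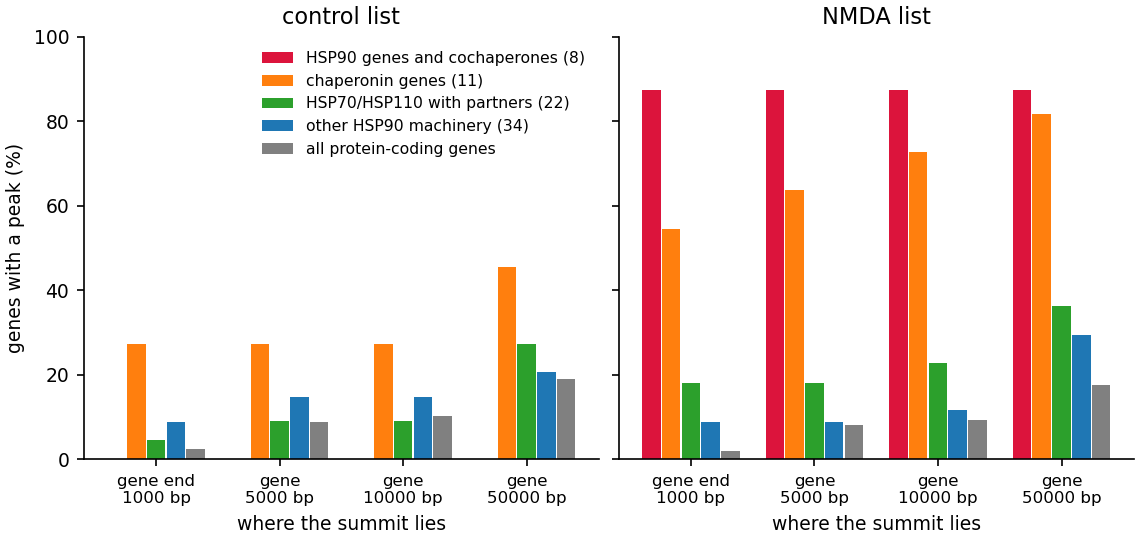
Percent of genes with a peak in the control list (left) and the NMDA list (right) for windows of 1000 bp at gene ends and of 5000, 10000 and 50000 bp around the gene. The bars of the 8 genes (red) stand at 87.5% in each NMDA window and at 0 in each control window, while those of all protein-coding genes (grey) grow with the window.

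The window did not alter these counts. With 5000 bp around the gene the 8 genes had 7 NMDA and 0 control peaks, beside 8.16% and 8.95% of all protein-coding genes. With 50000 bp they again had 7 and 0, beside 17.6% and 19.0%. Taking any base of a peak in place of the summit gave 7 and 0, beside 9.43% and 10.3%. With peaks of q below 0.05 they had 7 and 0, beside 7.52% and 7.61%. Chaperonin genes, which encode ring-shaped folding chambers, had an NMDA peak within 10000 bp for 8 of 11 and a control peak for 3 of 11. HSP70 and HSP110 genes with their partners had one for 5 of 22 and 2 of 22. The chaperonin genes Hspd1 and Hspe1 were each counted, although they shared the same peak in each list. With 10.3% of all protein-coding genes having a control peak, the 0 of 8 is no result about the 8 genes by itself. The fold of a gene's highest NMDA peak reached 15.4 among the HSP70 and HSP110 genes and 13.98 among the chaperonin genes. Both are above the 8.17 of Hsp90aa1. The medians over genes with a peak were, in the same order, 14.8, 3.17 and, for the 8 genes, 3.98. Of the 5 genes behind the 14.8, Hspa8, Hsph1 and St13 ranged from 14.8 to 15.4, while Hspa9 and Bag2 had 2.62 and 2.90.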

How the data were processed

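The data were the 2 peak lists that the authors deposited, 1 per condition, each named as replicated with a single input. Per the submitters' processing notes, the tools were MACS2, BWA, SAMtools, Trimmomatic and FastQC (no versions), and the builds GRCm38.p6 and mm10. The way libraries were merged was not stated. The deposited values of a peak are a score, a fold enrichment (a ratio over background) and its p and q as −log10 values. No per-sample column was left unused (0).

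Gene ends came from a RefSeq table of GRCm38.p6 with 49554 genes of all kinds, and promoters from a RefSeq table of 32851 windows, of which 32817 were distinct. The strand of the 6 genes with a promoter came from there. Positions are 1-based. Peaks overlapped when they shared at least 1 bp. Counts were made in Python 3.11.15 with pandas 2.3.3, and the assignment and the motif search were checked on made-up data. Medians are over genes or peaks, and no test was run, since libraries were not separate. The 8 genes and all lists were chosen with earlier results of these data known. The rule for naming genes took the 8, listed machinery genes with a peak and genes within 1000 bp of a summit. It also took 5 by likeness to each of the highest and lowest gene. Named outside this rule were Hsp90b1, Trap1, Cdc37, 1700001K19Rik and the genes of promoters with at least 4 units. Some chaperonin, HSP70 and HSP110 genes and partners were also named outside it.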

Additional observations from a re-analysis of the deposited data

How the results depend on the processing

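The counts of the 8 genes with an NMDA peak (7) and with a control peak (0) were the same in every window and with q below 0.05. With peaks of at least 4-fold the NMDA count was 3. None of the 8 genes had the same site in both lists by overlap of at least 50% of the shorter peak or by summits within 500 bp. For the other 34 machinery genes, the NMDA count went from 4 to 10 with 50000 bp and to 1 with at least 4-fold, and the control count went from 5 to 3 at gene ends and to 0 with at least 4-fold. The number of promoters with an element went from 1 to 2 with 2 units, to 4 with 1 mismatch and to 0 before the start only, since the Chordc1 element crosses the start. The cause of the other shifts was not tested. Ranks by −log10 p differed from ranks by fold by at most 424, at Cacybp (2256 against 2680). A search of the peaks' own sequence was not run. Replicates could not be left out in turn, as 1 list covers both libraries of a condition. No paired analysis was possible because replicates have no values of their own. What a missing peak can show is limited by the unknown depth.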
